A study of Mus musculus with 10 samples.

Results

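The DNA methylation machinery was followed in adult mouse somatosensory cortex after conditional deletion of Nsd1, the gene of an enzyme that methylates lysine 36 of histone H3. It was read as 9 genes taken by name: the writers Dnmt1 and Dnmt3a, the erasers Tet1, Tet2 and Tet3, and the readers Mbd1, Mbd2, Uhrf1 and Uhrf2. All 9 were found in both expression tables, which hold 23283 gene names at 2.5 months and 54427 at 3 months. In the 2.5-month table Dnmt3a had no row of its own and stood only in a row joined with its neighbour Dtnb. RNA sequencing compared 3 control and 3 conditional knockout (cKO) samples at 2.5 months in the Nex model, and 2 control and 2 cKO samples at 3 months in the Camk2a model. The cKO genotypes were Nsd1Nex-cKO and Nsd1Camk2a-cKO. Controls were Nsd1fl/+ in Nex control replicates 1 and 2 and in both Camk2a controls, and Nsd1fl/fl in Nex control replicate 3, so that 4 of the 5 controls carried 1 floxed and 1 unfloxed allele. The labels do not say whether controls carried Cre, or whether each sample was a separate mouse, so that p-values measure only the spread between these samples. Nex-Cre is known to act in newly formed excitatory neurons of the embryonic cortex, and Camk2a-Cre in such neurons at a later age, while glia, vessels and interneurons of the dissected tissue keep Nsd1.

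DNA methylation in mammals is placed on cytosines of CpG dinucleotides and, in neurons, also on cytosines outside CpG. DNMT3A writes new marks and is drawn to chromatin carrying dimethylated H3 lysine 36, the mark that NSD1 makes, through its PWWP domain. DNMT1 copies marks onto the new strand after replication, guided there by UHRF1. TET enzymes oxidise methylcytosine, and MBD proteins bind methylated DNA. The comparison asks whether the RNA of these genes itself differs when Nsd1 is deleted.

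CpG density differs widely between start sites of these genes, also between those of 1 gene, and 1 window before a start site is shown for each of both writers and Dazl. Dazl is taken from a list of germ cell genes known to be silenced by promoter methylation in somatic tissue, and is taken up again below. It was not silent here, at 1.07 to 1.73 FPKM in Nex controls and 1.05 to 1.26 FPKM in Camk2a controls. The sequences are from RefSeq (GRCm38.p6), 5′ to 3′ on the gene's strand, with each CpG in capitals. Each was cut before any exon annotated in GENCODE M21.
Dnmt1, minus strand, chr9:20952980-20953229: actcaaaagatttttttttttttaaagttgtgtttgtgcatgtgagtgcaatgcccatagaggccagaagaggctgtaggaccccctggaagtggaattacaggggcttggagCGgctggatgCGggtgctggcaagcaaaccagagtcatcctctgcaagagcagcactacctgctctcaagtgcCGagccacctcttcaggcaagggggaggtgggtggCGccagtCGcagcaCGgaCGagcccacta
Dnmt3a, plus strand, chr12:3806730-3806979: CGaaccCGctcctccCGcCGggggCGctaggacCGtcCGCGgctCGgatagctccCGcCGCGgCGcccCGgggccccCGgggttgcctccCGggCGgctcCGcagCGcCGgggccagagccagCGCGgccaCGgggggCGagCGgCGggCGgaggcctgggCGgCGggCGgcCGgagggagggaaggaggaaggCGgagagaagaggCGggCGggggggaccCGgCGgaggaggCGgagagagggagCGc
Dazl, minus strand, chr17:50293637-50293870: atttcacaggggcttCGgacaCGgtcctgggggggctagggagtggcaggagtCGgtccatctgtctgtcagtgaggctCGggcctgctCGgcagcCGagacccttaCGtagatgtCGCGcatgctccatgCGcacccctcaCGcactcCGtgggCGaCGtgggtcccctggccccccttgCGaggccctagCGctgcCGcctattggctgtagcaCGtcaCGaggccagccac
The window printed for each gene was the one with the fewest bases in annotated exons, then the most CpG. The Dnmt1 window is 1 of 3 listed for that gene, and the other windows held 26 and 2 CpG. The one with 26 CpG was passed over because 166 of its bases lay in exons. Dnmt3a likewise has 3 windows, with 38, 40 and 15 CpG. The printed windows of Dnmt1 and Dnmt3a both lie within the annotated span of their gene. The printed Dnmt1 window held 7 CpG, the Dnmt3a window 38 and the Dazl window of 234 bases 19. Of 32851 RefSeq windows of 250 bases before a start site, 92.1% held at least 1 CG dinucleotide, with a median of 6. More CpG than in the Dnmt3a window stood in 1.56% of them, and more than in the Dnmt1 window in 43%. RefSeq windows were matched for 7 of the 9 members, at 12 start sites, and the richest was that of Tet2 with 51 CpG. Methylation itself was not measured in these libraries, and a count of CpG says nothing about its state.

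The labels were checked on Nsd1 first. The 2.5-month table gives it only joined with Prelid1, at 129.9, 125.1 and 141.4 FPKM (fragments per kilobase of transcript, scaled to library size) in controls and 90.98, 118.1 and 105.6 FPKM in cKO libraries (limma, adjusted p = 0.0863). In the 3-month table Nsd1 alone had 5.61 and 8.87 FPKM in controls and 4.31 and 4.99 FPKM in cKO libraries (adjusted p = 0.685). Its log2 change there was -0.52 with all libraries, -0.23 without Camk2a control replicate 2 and -0.81 without Camk2a control replicate 1. All cKO values lay below all control values in both models, as in 18.9% (Nex) and 21.1% (Camk2a) of all tested genes. How much of the joined row is Nsd1 cannot be read. In the 3-month table Prelid1 alone had 34.8 and 35.3 FPKM in controls and 32.5 and 33.0 FPKM in cKO libraries, well above Nsd1. Neither the joined row nor Nsd1 alone passed the test with all libraries. The joined row passed without Nex cKO replicate 2 (log2 change -0.43, adjusted p = 0.0301) but not without replicate 3 (-0.35, adjusted p = 0.0929). The Camk2a libraries held 16901717 to 20074933 recovered reads, whereas the depth of the Nex libraries is unknown. Nex cKO replicate 3 stood apart: it was the only Nex library with the Y-linked Ddx3y above 0 (16.2 FPKM), and 41.6% of its summed FPKM lay in rows without a gene name, against 2.33% to 19.4% in the other 5. Changes of the tested members in the Nex model are therefore also given without it. The tissue label held: summed FPKM of 6 markers of excitatory neurons was 1418 to 1514 in Nex controls and 1263 to 1390 in Nex cKO libraries, and 896 to 995 in the Camk2a libraries. Of these 6 genes, Neurod2 rose and Neurod6 and Tbr1 fell in the Nex model, and 0 were called in the Camk2a model.

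In neither model did any of the 9 genes pass the test. A change was called at an adjusted p under 0.05, by limma on log2(FPKM + 1) with Benjamini-Hochberg adjustment over all genes tested in that table. Of the 9 genes, 7 reached FPKM 1 in enough libraries to be tested in each model, and Tet1 and Uhrf1 did not. In the Nex model 0 of 7 members were called, against 8.53% of the 12528 genes tested (4.47% higher and 4.06% lower, or 560 and 509 genes, with a balance that moved to 607 and 325 under median ratio rescaling, 197 and 347 with a filter of FPKM 5, 417 and 151 without control replicate 1, and 419 and 157 without control replicate 3), and 2 of 7 (Dnmt1 and Tet3) had an unadjusted p under 0.05, against 23.5% of all genes. The Camk2a model also had 0 of 7 called, as were 0% of the 12919 genes tested, and 0 of 7 had an unadjusted p under 0.05, against 6.96% of all genes. A second fit of the Camk2a model, limma voom on recovered reads, also called 0 of 7. With 2 libraries a group this design could hardly call any gene, so the absence of calls there does not show that levels were alike, and the intervals given with each gene bound the change. The median log2 change of the 7 members was -0.08 (Nex) and 0.01 (Camk2a), beside medians over all tested genes of -0.04 and -0.01. Their median absolute change was 0.11 and 0.04, beside 0.13 and 0.10 over all genes. In this bulk tissue, fewer cells of a type and less RNA per cell cannot be told apart.

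**Figure D1:**
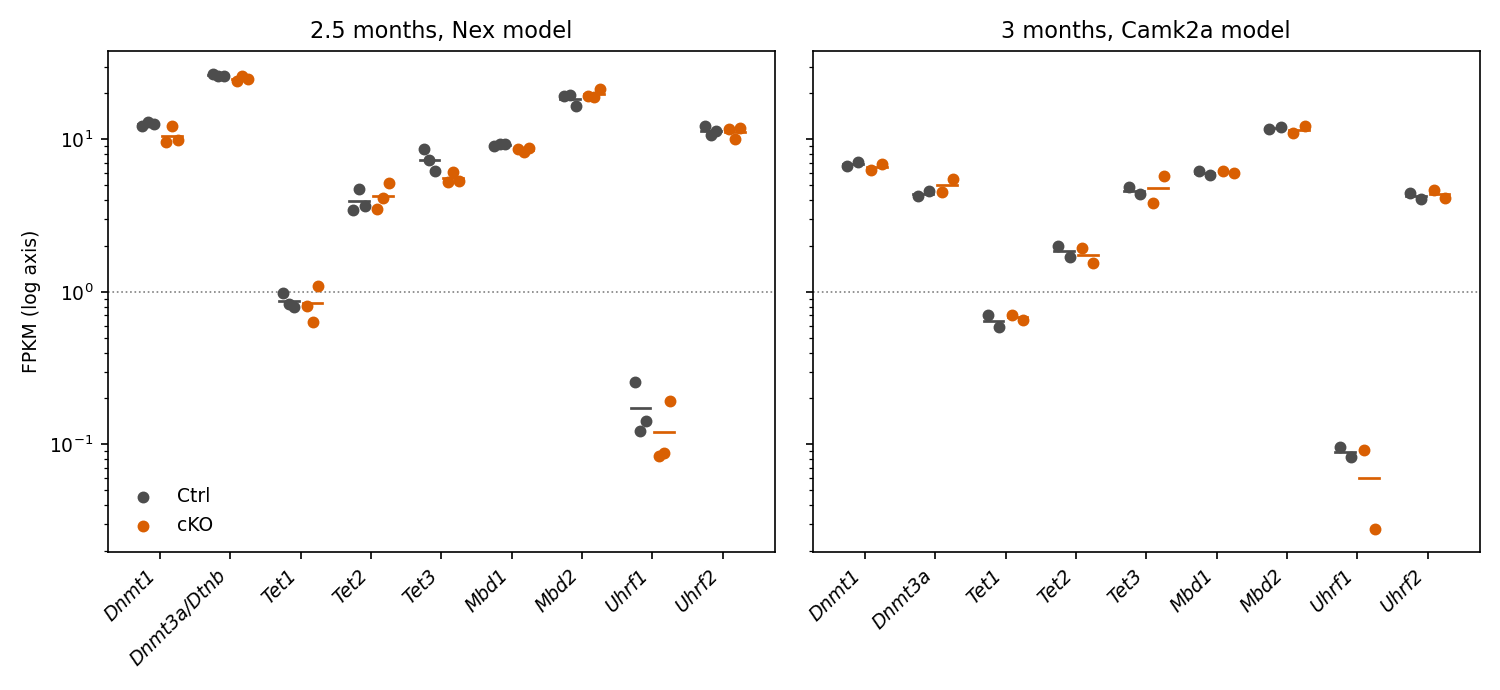
FPKM of the 9 genes in each library on a log axis, with 1 point per library and a bar at the group mean; the dotted line marks FPKM 1. Control and cKO points intermingle for all 7 tested genes of the Camk2a model, and in the Nex model the cKO points of Dnmt1, Dnmt3a/Dtnb, Tet3 and Mbd1 all lie below the control points.

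Levels per length spanned a wide range in both tables. In Nex controls Mbd2 had the highest mean of any member with its own row (18.4 FPKM), followed by Dnmt1 (12.7), Uhrf2 (11.4), Mbd1 (9.25), Tet3 (7.37), Tet2 (3.94), Tet1 (0.871) and Uhrf1 (0.173). The ranges of neighbours in this order did not overlap among the 3 controls, although the lowest Dnmt1 value (12.3 FPKM) and the highest Uhrf2 value (12.2 FPKM) nearly met. In Camk2a controls the order was Mbd2 (11.9 FPKM), Dnmt1 (6.90), Mbd1 (6.03), Tet3 (4.61), Dnmt3a (4.41), Uhrf2 (4.26), Tet2 (1.84), Tet1 (0.648) and Uhrf1 (0.0893). Tet3, Dnmt3a and Uhrf2 had overlapping values there and cannot be ranked. The tables were normalized apart with different gene models, so levels are not compared between them.

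Dnmt1, the maintenance methyltransferase (chromosome 9, 20907209 to 20959888, GRCm38), is the writer read most cleanly in both tables. In the Nex model it had 12.3, 13.1 and 12.6 FPKM in control replicates 1 to 3 and 9.63, 12.1 and 9.83 FPKM in cKO replicates 1 to 3. All 3 cKO values lay below all 3 control values, but cKO replicate 2 nearly reached the lowest control. The log2 change was -0.25 (SE 0.10, 95% interval -0.47 to -0.03), and with adjustment over all genes it missed the threshold (limma, adjusted p = 0.16). Without cKO replicate 2 it was -0.35 and passed (adjusted p = 0.0371), and without cKO replicate 3 it was -0.21 (adjusted p = 0.251). Under median ratio rescaling and under quantile normalization it was -0.21 (limma, adjusted p = 0.243 and 0.246). Of the 15 settings run only 1 called Dnmt1, the one without cKO replicate 2. That library also had the highest value of the 3 cKO libraries for the joined row of Nsd1 and Prelid1, and cKO replicate 1 the lowest, an order shared by Dnmt1, Tet3 and the joined row of Dnmt3a and Dtnb and not by the other 4 tested members. This order was looked at after the values were seen, and its share among all tested genes was not counted. The joined row may not follow Nsd1 itself, so no link of the members to the level of Nsd1 is read from it. In Camk2a libraries Dnmt1 had 6.72 and 7.08 FPKM in controls and 6.31 and 6.87 FPKM in cKO libraries, from 829 to 1033 recovered reads. The groups overlapped, and the log2 change was -0.06 (95% interval -0.31 to 0.19, adjusted p = 0.943).

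Dnmt3a, the de novo methyltransferase (chromosome 12, 3806007 to 3914443), could be read alone only in the Camk2a model. It had 4.24 and 4.58 FPKM in controls and 4.52 and 5.53 FPKM in cKO libraries, from 1215 to 1548 reads. One cKO library lay within the control range and the other above it. The log2 change was 0.15 (SE 0.13, 95% interval -0.16 to 0.46, limma adjusted p = 0.869). At 2.5 months the row joining Dnmt3a and Dtnb, which encodes the cytoskeletal adaptor beta-dystrobrevin, had 27.0, 26.1 and 25.9 FPKM in controls and 24.1, 25.9 and 24.8 FPKM in cKO libraries. The cKO values lay below the control values by a narrow margin, with a log2 change of -0.08 (95% interval -0.23 to 0.07, adjusted p = 0.529), and -0.07 without cKO replicate 3. Under quantile normalization the change of the joined row was 0.0096. How much of this row is Dnmt3a cannot be read from the table. In the 3-month table, where Dtnb ends 24210 bases before Dnmt3a starts on the same strand, Dnmt3a made up 45.4% to 49.3% of the summed FPKM of both genes.

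Among the erasers, Tet3 and Tet2 carried nearly all TET transcript. Tet3 (chromosome 6, 83362373 to 83459084) had 8.63, 7.29 and 6.18 FPKM in Nex controls and 5.28, 6.07 and 5.36 FPKM in Nex cKO libraries. The groups did not overlap, although the lowest control, which is the Nsd1fl/fl library, and the highest cKO library were close. Its log2 change of -0.34 (SE 0.12, 95% interval -0.61 to -0.07) was the largest in size among the members in either model, and 13.8% of all tested genes had a larger absolute change. It did not pass over all genes (limma, adjusted p = 0.126), nor in any of the 14 alternatives run, where its log2 change ran from -0.45 to -0.23 and its adjusted p from 0.0884 to 0.355. Without cKO replicate 3 it was -0.32 (adjusted p = 0.187). In Camk2a libraries Tet3 had 4.85 and 4.38 FPKM in controls and 3.85 and 5.79 FPKM in cKO libraries. The cKO libraries lay on both sides of the controls, with a log2 change of 0.03 (95% interval -0.40 to 0.46, adjusted p = 0.989) that was -0.03 without Camk2a control replicate 2 and -0.21 without Camk2a cKO replicate 2.

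Tet2 (chromosome 3, 133463679 to 133545139) had 3.46, 4.71 and 3.63 FPKM in Nex controls and 3.49, 4.15 and 5.16 FPKM in Nex cKO libraries. The groups overlapped, and the log2 change of 0.09 (95% interval -0.24 to 0.42, limma adjusted p = 0.754) was -0.03 without cKO replicate 3, the library that stood apart and held the highest Tet2 value. At 3 months it had 1.99 and 1.69 FPKM in controls and 1.93 and 1.54 FPKM in cKO libraries (log2 change -0.06, 95% interval -0.42 to 0.31, adjusted p = 0.965). Tet1 (chromosome 10, 62804570 to 62908996) was low throughout, at 0.801 to 0.976 FPKM in Nex controls, 0.632 to 1.10 FPKM in Nex cKO libraries and 0.589 to 0.707 FPKM in the Camk2a libraries, the last from 171 to 193 reads each. It did not enter the test. With no filter on low values its log2 change was -0.03 (Nex) and 0.03 (Camk2a).

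Read as a share within each library, Tet3 made up 66.0%, 56.8% and 58.3% of the summed TET FPKM in Nex controls and 55.1%, 55.9% and 46.1% in Nex cKO libraries. The 3 cKO shares lay below the 3 control shares, and the lowest belonged to cKO replicate 3. The Camk2a controls had shares of 64.3% and 65.7%, and the cKO libraries 59.4% and 72.5%, on both sides of the controls. These shares are a description chosen after the values were seen.

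**Figure D2:**
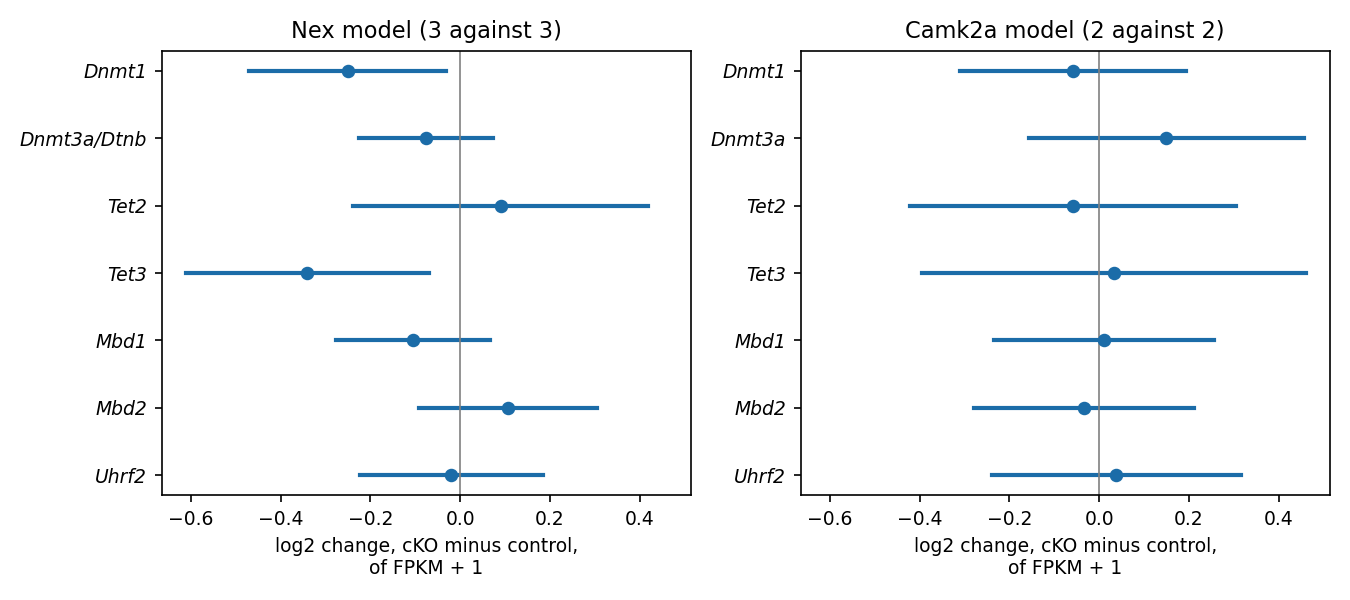
Log2 change, cKO minus control, of FPKM + 1 for the 7 tested members in each model, with points for the estimate and lines for the 95% interval from limma. In the Nex model only the intervals of Dnmt1 (-0.47 to -0.03) and Tet3 (-0.61 to -0.07) lie wholly below 0, and in the Camk2a model every interval spans 0.

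The 3 tested readers had log2 changes of at most 0.11 in size in either model, and limma called none of them. Mbd2 (chromosome 18, 70568189 to 70626131), a methyl-CpG binding subunit of the NuRD repressor complex, had 19.2, 19.6 and 16.4 FPKM in Nex controls and 19.3, 19.0 and 21.2 FPKM in Nex cKO libraries. The groups overlapped, with a log2 change of 0.11 (95% interval -0.09 to 0.31, limma adjusted p = 0.51) and of 0.06 without cKO replicate 3. At 3 months it had 11.8 and 11.98 FPKM in controls and 10.98 and 12.2 FPKM in cKO libraries (log2 change -0.03, 95% interval -0.28 to 0.21). Mbd1 (chromosome 18, 74267605 to 74282732), a methyl-CpG binding repressor, had 8.98, 9.37 and 9.39 FPKM in Nex controls and 8.64, 8.21 and 8.74 FPKM in Nex cKO libraries. The cKO values lay below the control values by a small step (log2 change -0.11, 95% interval -0.28 to 0.07, adjusted p = 0.448, and -0.12 without cKO replicate 3). Camk2a libraries gave almost equal values: Mbd1 had 6.19 and 5.87 FPKM in controls and 6.19 and 5.98 FPKM in cKO libraries, with a log2 change of 0.01 (95% interval -0.23 to 0.26).

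Uhrf2 and Uhrf1, which bind modified CpG and H3 tails, stood far apart in level. Uhrf2 (chromosome 19, 30030513 to 30093722) had 12.2, 10.6 and 11.3 FPKM in Nex controls and 11.7, 10.1 and 11.8 FPKM in Nex cKO libraries. Its log2 change of -0.02 (95% interval -0.22 to 0.19, limma adjusted p = 0.926) was 0.03 under quantile normalization and 0.02 under median ratio rescaling, and -0.06 without cKO replicate 3. At 3 months it had 4.44 and 4.07 FPKM in controls and 4.65 and 4.15 FPKM in cKO libraries (log2 change 0.04, 95% interval -0.24 to 0.32). Uhrf1 (chromosome 17, 56303321 to 56323486), the partner of DNMT1 in dividing cells, had 0.256, 0.122 and 0.142 FPKM in Nex controls and 0.0844, 0.0880 and 0.192 FPKM in Nex cKO libraries. In the Camk2a libraries it had 0.0955 and 0.0831 FPKM in controls and 0.0923 and 0.0279 FPKM in cKO libraries, which rested on 7, 7, 7 and 2 reads, so that a difference was not detectable at this depth. Within each library Uhrf2 had 46.5 to 148 times the FPKM of Uhrf1. Markers of dividing cells were low too: 6 such genes (among them Mki67 and Top2a) summed to 0.379 to 1.06 FPKM in Nex controls, 0.605 to 1.33 FPKM in Nex cKO libraries and 0.289 to 0.497 FPKM in the Camk2a libraries, and none of the 6 reached the filter.

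Taking the members by whether the groups overlap, in the Nex model 4 of 7 (57.1%) had all cKO values below all control values (Dnmt1, Dnmt3a/Dtnb, Tet3 and Mbd1), against 18.9% of all tested genes, and 0 of 7 had all cKO values above, against 11.5% (30.4% in either direction). Of the Camk2a members 0 of 7 had groups that did not overlap, against 37.3% of all tested genes. The members are few and were not compared with other genes by a test. For the joined row of Dnmt3a and Dtnb the highest cKO value (25.934 FPKM) almost met the lowest control (25.944 FPKM). Under median ratio rescaling the median log2 change of all Nex genes moved from -0.043 to -0.0019, that of the joined row was -0.03 and that of Mbd1 -0.06. Overlap was not counted under that scaling. Markers of other cells also differed between the Nex groups. The summed FPKM of 5 oligodendrocyte markers was 1252 to 1351 in controls and 952 to 1155 in cKO libraries, with 0 of 5 called. That of 4 endothelial markers was 47.3 to 61.1 and 32.7 to 41.7, with 1 of 4 (Cldn5) called lower. Of 6 inhibitory neuron markers Gad2 was called higher (log2 change 0.63, adjusted p = 0.00203), with summed FPKM of 707 to 826 and 507 to 813. Of 3 markers of oligodendrocyte precursors Cspg4 was called higher (0.60, adjusted p = 0.0213) and Gpr17 lower (-0.63, adjusted p = 0.0216), with summed FPKM of 15.99 to 19.14 and 12.99 to 16.9. Astrocyte markers (220 to 259 and 241 to 275, with 1 of 5, Gfap, called higher) and microglial markers (87.6 to 106.9 and 102.9 to 110.1, with 0 of 5 called) overlapped. No marker of these lists was at 0 in all libraries, and their part in the values of the members was not tested.

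**Figure D3:**
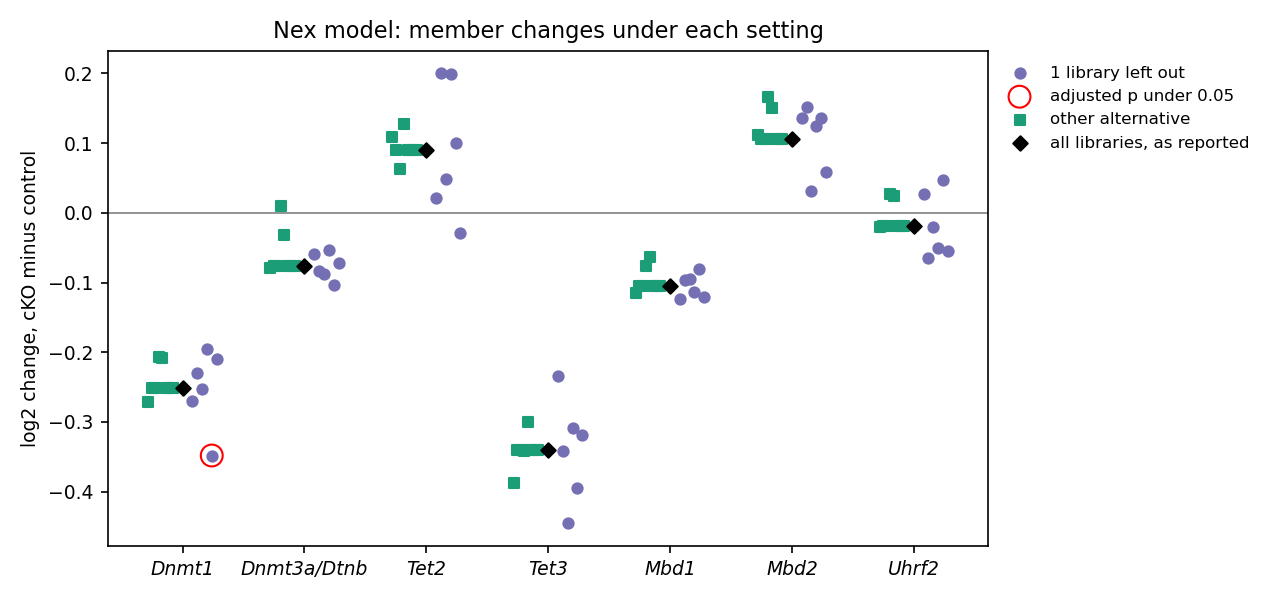
Log2 change, cKO minus control, of the 7 tested members in the Nex model: diamonds with all libraries, squares under the other alternatives and circles with 1 library left out; a red ring marks an adjusted p under 0.05. The single ring is Dnmt1 without cKO replicate 2 (-0.35), and Tet3 stays between -0.45 and -0.23 with no ring.

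Whether a member's change differed between the models was asked directly, as the Nex change minus the Camk2a change. Age, driver and table differ together in this comparison, and so do the sex-linked transcripts: Ddx3y was at 10.98 to 12.4 FPKM and Xist under 0.01 FPKM in all 4 Camk2a libraries, whereas 5 of 6 Nex libraries had Ddx3y at 0 and Xist at 33.6 to 46.5 FPKM. Of the 6 members with a tested row of the same name in both tables, 0 were called by limma and 0 had an unadjusted p under 0.05, against 0.554% (0.386% positive and 0.168% negative) and 13.4% of the 10116 genes compared. The largest difference was that of Tet3, at -0.37 (95% interval -0.85 to 0.10, adjusted p = 0.487), followed by Dnmt1 at -0.19 (95% interval -0.51 to 0.12, adjusted p = 0.594). Tet2 differed by 0.15, Mbd2 by 0.14, Mbd1 by -0.12 and Uhrf2 by -0.06. When the joined row of Dnmt3a and Dtnb was set against the summed FPKM of both genes in the 3-month table (controls 9.35 and 9.71 FPKM, cKO 9.33 and 11.2 FPKM), the difference was -0.17 (95% interval -0.44 to 0.10, adjusted p = 0.569). This last alternative was added after the data were seen. The Nex and Camk2a changes of the members thus stand as separate values that the test did not tell apart, with intervals wide enough to hold differences of the size of the changes themselves.

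Other genes of the pathway were read from a list of 50: further writers and readers, base excision repair and Gadd45 genes, partners of the enzymes, NuRD subunits, and enzymes that supply or remove their cofactors. Of the 46 tested in the Nex model 0 rose and 1 fell (2.17% called, against 8.53% of all genes), with a median log2 change of -0.02. For the Camk2a model limma called 0 of 45 tested and voom 0. An unadjusted p under 0.05 by limma was found for 5 of 46 in the Nex model, against 23.5% of all genes. In the Camk2a model it was found for 2 of 45 (3 with voom), against 6.96% of all genes by limma. The other writers were near 0: Dnmt3b, the second de novo methyltransferase, had 0.0670 to 0.272 FPKM in Nex libraries, and Dnmt3l, a catalytically inactive cofactor of germ cells, was listed at 0 in all 3 Nex controls and at 0.220, 0.0591 and 0 FPKM in the cKO libraries. Of 9 further readers on the list 0 were called in either model, and the same held for 11 NuRD subunits, 6 tested partners and 7 genes of cofactor metabolism.

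Gadd45a (chromosome 6, 67035096 to 67037457), a stress-induced gene whose product has been linked to repair-based DNA demethylation, was the gene that fell. It had 18.1, 10.6 and 8.48 FPKM in Nex controls and 5.26, 5.07 and 3.98 FPKM in Nex cKO libraries. Every cKO library lay below every control, and the controls themselves differed widely. The log2 change was -1.16 (SE 0.23, 95% interval -1.68 to -0.64, limma adjusted p = 0.0154), and it passed in each of the 14 alternatives run, with adjusted p from 0.00341 to 0.0421 (-1.06 without cKO replicate 3). The summed FPKM of red cell markers moved the same way between these groups (124 to 272 in controls and 50.7 to 95.1 in cKO libraries), as did that of the endothelial markers given above, and their part in this fall was not tested. At 3 months Gadd45a had 1.81 and 1.58 FPKM in controls and 2.36 and 1.65 FPKM in cKO libraries (log2 change 0.15, adjusted p = 0.907), and the difference between the models was -1.31 (adjusted p = 0.127). The paralogue Gadd45b had the smallest p of the list in the Camk2a model, at 4.32 and 4.23 FPKM in controls and 6.65 and 7.34 FPKM in cKO libraries (log2 change 0.60, 95% interval 0.34 to 0.86, limma adjusted p = 0.369). Apex1, the abasic site endonuclease, also had one of the 3 smallest p there, at 3.07 and 2.88 FPKM in controls and 3.95 and 3.64 FPKM in cKO libraries (log2 change 0.27, limma adjusted p = 0.719). Of the 12 repair and Gadd45 genes tested in the Camk2a model 11 had a positive change, with a median of 0.27, and 0 were called. Among all 12919 genes 6142 changes were positive, with a median of -0.01. The other Camk2a lists did not all lean this way. Positive and negative changes numbered 2 and 7 for readers, 2 and 4 for partners, 6 and 5 for NuRD, and 5 and 2 for cofactor metabolism. All 45 tested pathway genes gave 26 and 19, with a median of 0.02. No test of the lists was run. The repair and Gadd45 list ran the other way in the Nex model, where 3 of 13 had a positive and 10 a negative change, with a median of -0.08. Changes over all 12528 genes of that model also leaned down, with 5071 positive, 7457 negative and a median of -0.04. Endothelial markers summed to 27.3 to 27.5 FPKM in Camk2a controls and 35.3 to 37.5 FPKM in Camk2a cKO libraries, and red cell markers to 80.4 to 100.9 FPKM and 124.4 to 159.3 FPKM, with 0 genes of either list called, and their part in these values was not tested.

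**Figure D4:**
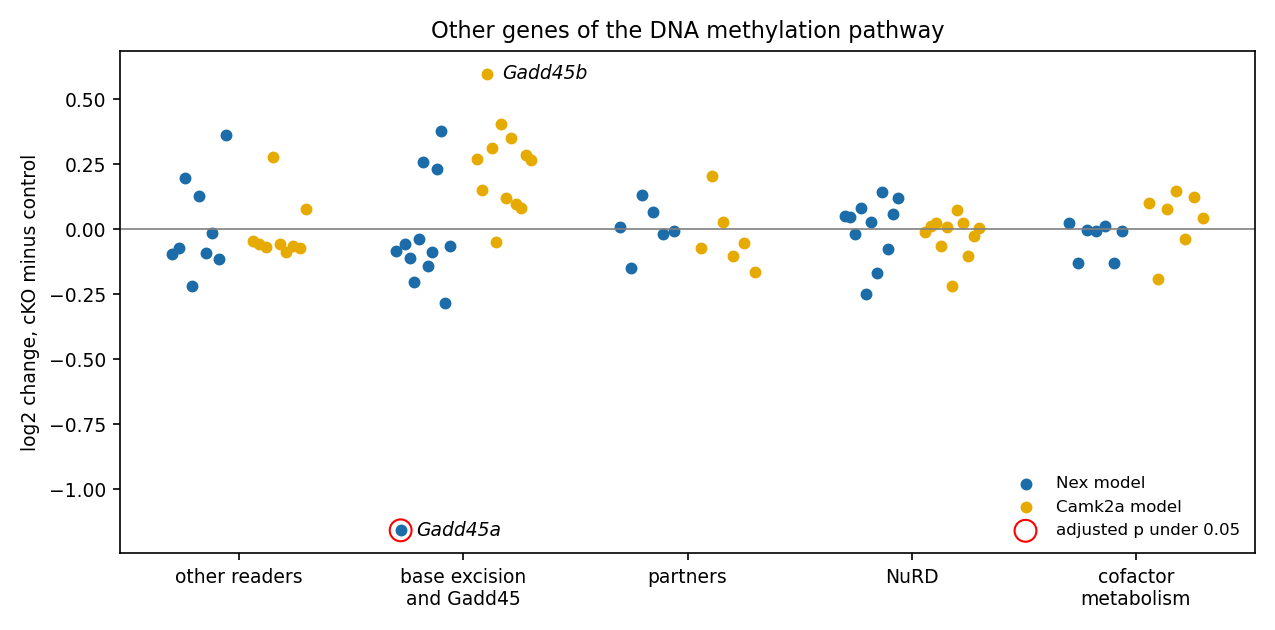
Log2 change, cKO minus control, of the tested genes of the other pathway lists in the Nex model (blue) and the Camk2a model (yellow), 1 point per gene; a red ring marks an adjusted p under 0.05. Gadd45a in the Nex model (-1.16) is the only gene with a ring, and Gadd45b in the Camk2a model (0.60) is the highest point.

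The RNA of 22 germ cell genes that promoter methylation is known to silence in somatic tissue was also examined. None was called in either model. In each model 18 of those with their own row (21 in the Nex table, 22 in the Camk2a table) stayed under FPKM 1 in every library, and 6 and 7 were listed at 0 in all libraries of the table. Only 3 were tested in each model: Dazl, Brdt and the joined row Piwil2/Polr3d in the Nex model, and Dazl, Brdt and Sycp3 in the Camk2a model. Dazl and Brdt were not silent in controls, where Brdt had 2.33 to 3.14 FPKM (Nex) and 2.90 to 3.05 FPKM (Camk2a). Methylation of their promoters was not measured, so that no change of their RNA is read as a change of methylation. With no filter on low values limma called 0 of 16 rows in the Nex model, against 6.74% of all rows fitted. In the Camk2a model it called 0 of 15, against 0%. With the filter, 1 of 3 (Nex) and 0 of 3 (Camk2a) had an unadjusted p under 0.05, against 23.5% and 6.96% of all genes. Dazl, an RNA-binding protein of germ cells whose CpG-rich promoter is printed above, is given here after its values were seen. It had 1.73, 1.07 and 1.48 FPKM in Nex controls and 0.946, 0.376 and 0.711 FPKM in Nex cKO libraries, all lower than in any control. The log2 change was -0.54 (95% interval -0.92 to -0.16, adjusted p = 0.0886), and under quantile normalization it passed (-0.82, adjusted p = 0.0313), whereas without cKO replicate 3 it did not (-0.56, adjusted p = 0.112). At 3 months it had 1.26 and 1.05 FPKM in controls and 1.13 and 0.919 FPKM in cKO libraries (log2 change -0.09, adjusted p = 0.946).

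For Dnmt3a, genes with a like pattern were sought over the 10 libraries, as the Pearson correlation of log2(FPKM + 1) after subtraction of the control mean of each table, among 10116 genes. The joined row stood for Dnmt3a in the Nex libraries. The closest were the sphingosine kinase gene Sphk1 (r = 0.98), the Ras GTPase-activating protein gene Rasa3 (r = 0.98) and the kinase gene Dclk3 (r = 0.96). The libraries come from 2 tables and share each table's control mean, and so many genes over so few libraries give high values for some, so these are a description only.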

How the data were processed

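RNA was measured in 10 samples of somatosensory cortex. Tools listed in the submitters' processing notes, without a role or order, are STAR, cutadapt, DESeq2 and Cufflinks 2.2.1, and the builds listed are GRCm38 and mm10. Expression was deposited by the authors as FPKM, per the file headers and names, in 2 tables with different gene models, each fitted apart. The deposited gene length of the 3-month table gave whole reads for 100% of values within a tolerance of 0.1. The Nex table allowed no such recovery. Rows without a name (4463 in the 2.5-month table) were left out, and of repeated names the row of highest mean was kept. A gene was tested where 3 (Nex) or 2 (Camk2a) libraries or more reached FPKM 1.

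Values were compared as log2(FPKM + 1) with limma 3.58.1 (lmFit, then eBayes with trend), under R 4.3.3, two-sided, with Benjamini-Hochberg adjustment over all genes tested. Fold changes on this scale understate those of low genes. The fits were tested on simulated data, where that of 2 against 2 libraries recovered none of the changes added and those of the Nex model and of the difference missed many of the smaller ones. There 20 of 112 calls of the difference fit were false, against 4 of 128 of the Nex fit, so that calls of the difference are less secure than the threshold implies. The members and lists were chosen with earlier results of these data known. Named genes were the 9 members, pathway or germ cell genes past the threshold (or, where none passed in a model, the 3 of smallest p), Nsd1 and the 3 genes most like Dnmt3a. A gene that this rule names is not reported here. Alternatives were no filter or one of FPKM 5, a pseudocount of 0.1, quantile normalization, median ratio rescaling, no trend, robust moderation, a replicate block, voom on recovered reads (Camk2a), and leaving out each library.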

Additional observations from a re-analysis of the deposited data

How the results depend on the processing

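In the Nex model the count of all called genes (1069) was 544 with a filter of FPKM 5, where fewer genes were tested, and 568 to 1242 with 1 library left out, under 1069 divided by 1.5 without Nex control replicate 1, 2 or 3 or Nex cKO replicate 1 (568, 644, 576 and 664). The split into higher and lower was 441 and 203 without Nex control replicate 2, 446 and 218 without Nex cKO replicate 1, and 558 and 684 without Nex cKO replicate 2, beside 560 and 509 with all libraries. Members called there numbered 0, and 0 to 1 with 1 library left out (Dnmt1 without Nex_cKO replicate 2). In the Camk2a model the 0 calls over all genes became 1 with a filter of FPKM 5, 5 with no intensity trend, 1 with robust moderation, 1 with voom and 0 to 1 with 1 library left out, none of them a member. The 56 genes whose change differed between the models became 34 with a pseudocount of 0.1, 278 with no filter, 7 with a filter of FPKM 5 and 13 to 96 with 1 library left out. The replicate number used as a block gave 29 such genes and called no member in either model. Whether the numbers pair the samples is unknown. Deviations of same-numbered libraries from their group mean correlated at 0.017, -0.10 and -0.096 (Nex) and at 0.050 (Camk2a). With so few libraries a group these values are bound to each other and cannot exclude a pairing. The cause of these shifts was not tested unless stated.

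Signs turned only for changes that were not called. In the Nex model these were Dnmt3a/Dtnb (0.0096 with quantile normalization), Uhrf2 (0.027 with quantile normalization, 0.024 with median ratio rescaling, -0.064 to 0.047 with 1 library left out), Tet2 (-0.029 to 0.20 with 1 left out) and Gadd45b (-0.24 to 0.22). In the Camk2a model they were Tet2 (-0.16 to 0.045 with 1 left out), Tet3 (-0.21 to 0.28), Mbd1 (-0.022 to 0.044), Mbd2 (-0.10 to 0.038, and 0.019 with voom), Uhrf2 (-0.029 to 0.10) and Gadd45a (-0.022 to 0.32). The difference between models turned for Uhrf2 (-0.12 to 0.010). With 1 library left out of the Camk2a model, the lone library of its group is assumed to vary like the other group. Depth is unknown for the Nex libraries, and in the Camk2a libraries Uhrf1 at 2 to 7 reads was too shallow for any comparison.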
